A study of Rattus norvegicus with 23 samples.

Results

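Mitochondrial ribosomal protein genes were followed in the livers of Sprague Dawley rats in a study that modelled portosinusoidal vascular disease, in which the finest portal branches and sinusoids are damaged without cirrhosis. A gene was a member when its symbol began with Mrpl or Mrps and a digit, did not mark a pseudogene and had at least 100 counts in total over 23 libraries. This rule kept 72 of 75 matching symbols in a table of 28913 genes, and all 72 passed the filter on low counts that left 15079 genes for testing. Mrpl1 was just inside the minimum with 176 counts, and Mrps21l and Mrpl36 with 2 counts each and Mrpl53 with 1 count were just outside it. Mrpl9, Mrpl11, Mrpl24 and Mrpl30 were not analysed here.

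Poly(A)-selected RNA of whole liver was sequenced from 10 Selfox, 7 LPS and 6 Control libraries. Selfox rats, named Oxa in the library titles, ate a diet enriched in selenium for 8 weeks and had 8 weekly intravenous injections of 3 mg/kg oxaliplatin, 25 mg/kg fluorouracil and 45 mg/kg folinic acid. LPS rats had a catheter placed surgically into the portal circulation and received 1 mg/kg lipopolysaccharide, a bacterial endotoxin, 2 times a week for 8 weeks. Control rats had no treatment, and the labels describe neither a sham operation nor a diet control for them, so that surgery cannot be told apart from endotoxin, nor diet from chemotherapy. Age and sex are not given, and nothing says whether each library is a different rat, so p-values measure the spread between libraries. Libraries held 65113145 to 74809989 counts in the Selfox group, 70372293 to 79249765 in the LPS group and 31889957 to 53806710 in the Control group. Alb, which encodes albumin and is the main marker of hepatocytes, took 7.74% to 11.1% of counts in Selfox, 6.76% to 12.8% in LPS and 11.7% to 16.4% in Control libraries.

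The mitochondrial ribosome translates the 13 proteins that mitochondrial DNA encodes, all of them subunits of the respiratory chain and ATP synthase. Its own proteins are all encoded in the nucleus, made in the cytosol and imported, and they join ribosomal RNA transcribed inside the organelle. Some descend from the proteins of the bacterial ribosome and others are specific to mitochondria. In hepatocytes, which are rich in mitochondria, this machinery serves the respiration that drives gluconeogenesis, ureagenesis and fat oxidation. Of the 72 members, 45 encode proteins of the large subunit, 25 with a bacterial counterpart and 20 specific to mitochondria. A further 26 encode proteins of the small subunit, 16 with a bacterial counterpart and 10 specific to mitochondria. Mrps36 is the remaining member, whose product is known as part of the alpha-ketoglutarate dehydrogenase complex of the citric acid cycle and not of the ribosome.

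The members' changes were small and mostly upward. Selfox livers had 16 members higher and 6 lower than Control livers, and LPS livers had 6 higher and 2 lower, by edgeR's quasi-likelihood test at a Benjamini-Hochberg adjusted p under 0.05 over all genes. In Selfox livers the 22 members called were 30.6% of the 72, against 29.1% of all genes tested. In LPS livers the 8 members called were 11.1%, against 14.7% of all genes tested. Both shares were near the background. The median size of the log2 fold change regardless of sign was 0.15 over the members and 0.23 over all genes tested in Selfox against Control, and 0.12 and 0.19 in LPS against Control. Members and all genes were not matched on abundance for these sizes.

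The direction was less even than over all genes. The median log2 fold change of the members was 0.11 in Selfox against Control livers, with 53 of 72 members positive, and 0.01 over all genes tested, of which 51.3% were positive. Against the same Control libraries the LPS livers had a member median of 0.10, with 56 of 72 positive, and a median over all genes of 0.01, of which 50.9% were positive. With 1 library left out at a time, the member median ran from 0.09 to 0.14 in Selfox and from 0.06, without Control 49, to 0.14 in LPS livers. Among the calls, 16 members or 22.2% were higher in Selfox livers, against 14.2% of all genes, and 6 members or 8.33% were lower, against 14.9% of all genes. For LPS the shares were 8.33% of members higher against 7.71% of all genes, and 2.78% of members lower against 6.99%. These medians are descriptions of the members, which share control libraries in both comparisons.

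**Figure D1:**
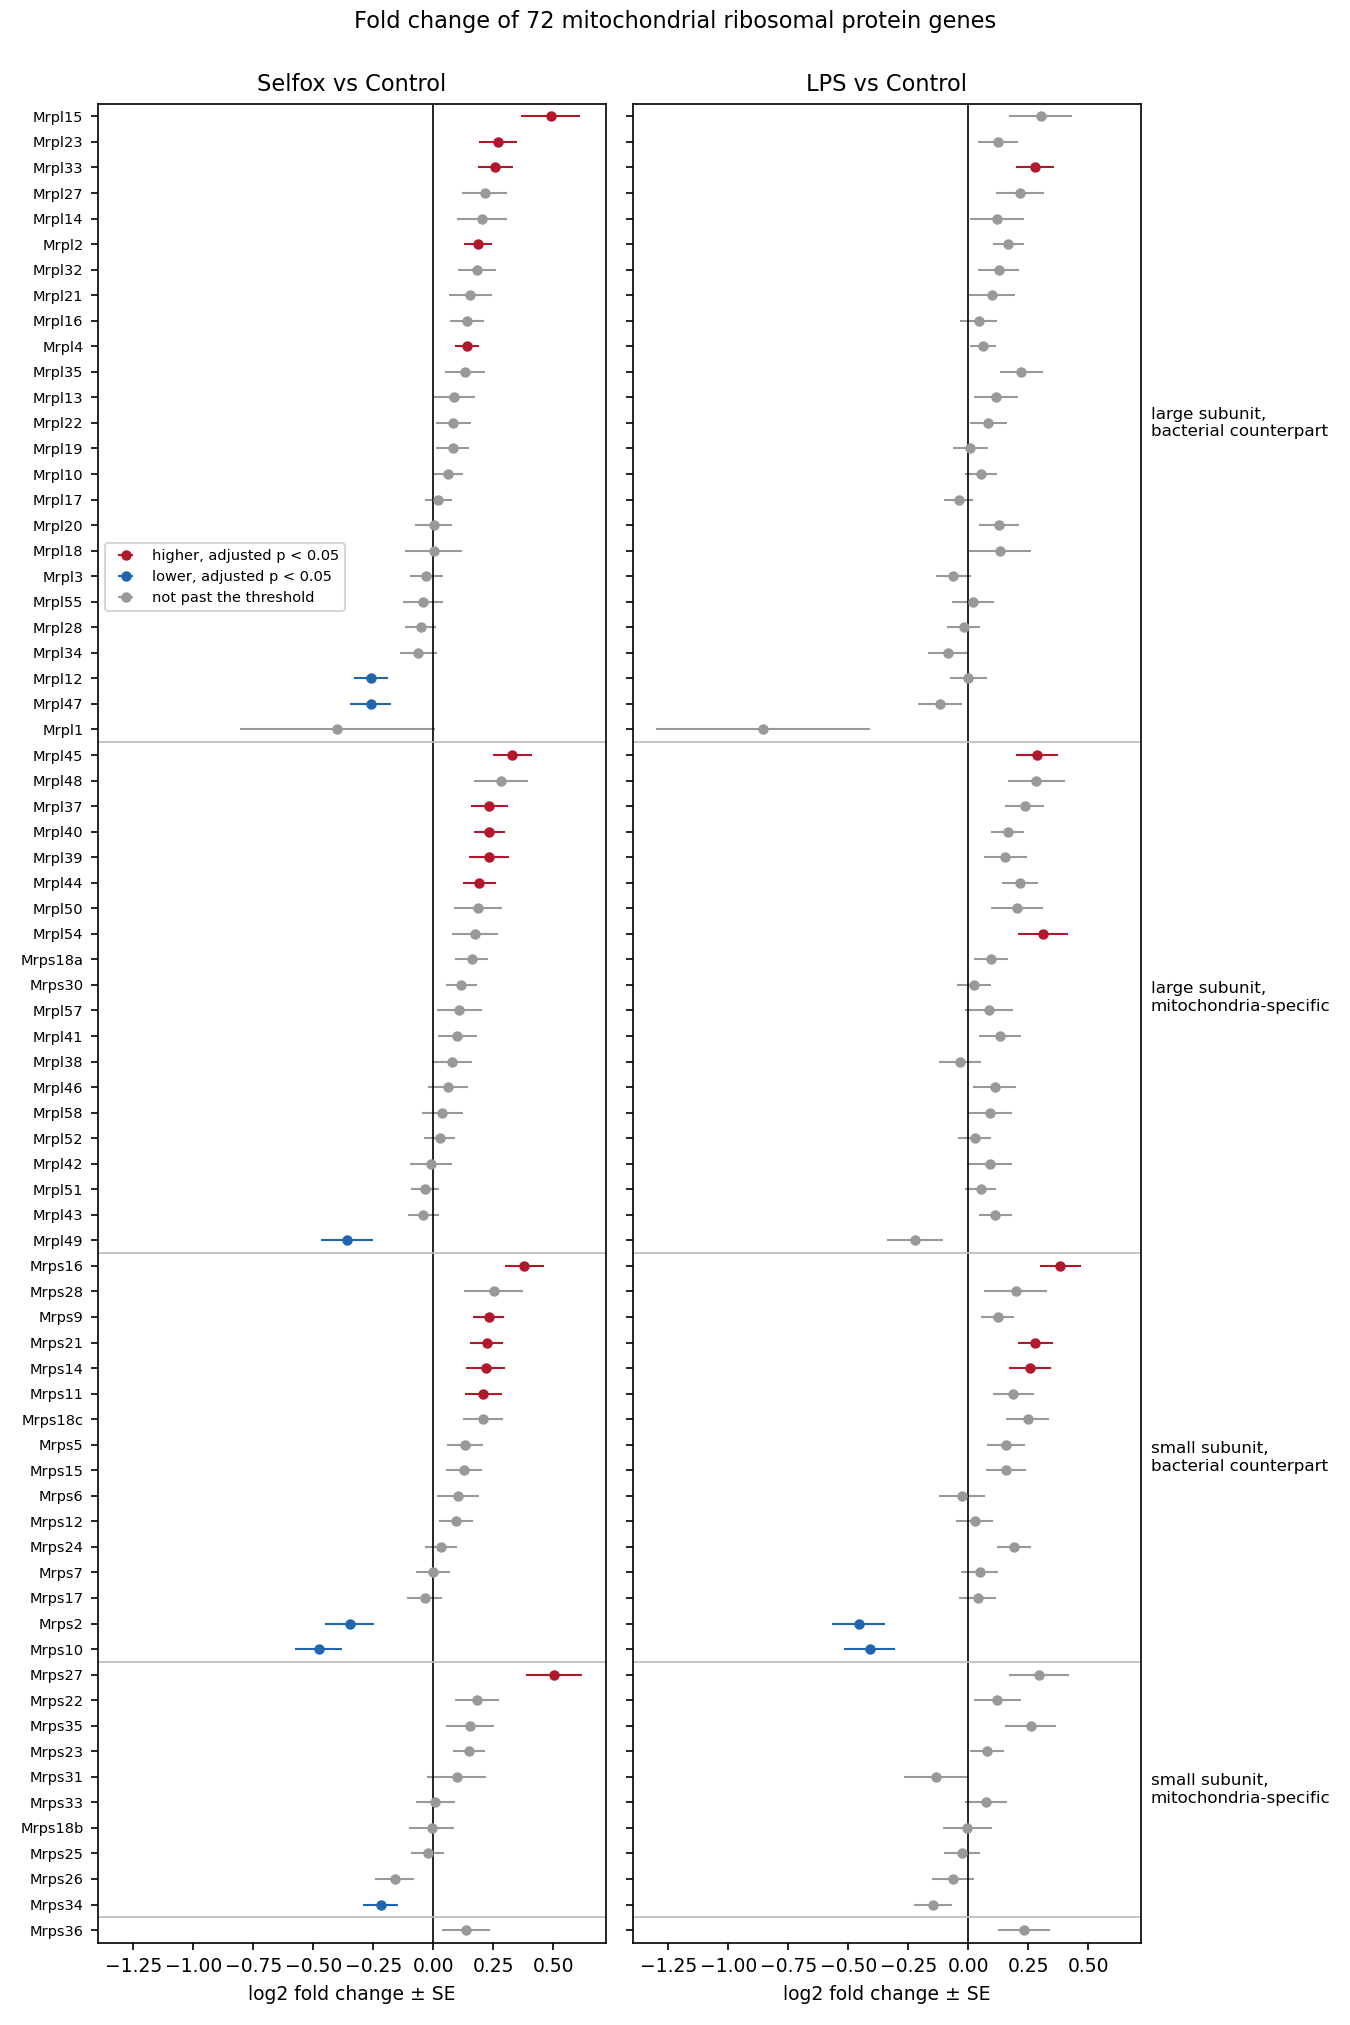
Log2 fold change with its standard error (x axis) for each of the 72 members (rows, ordered within the subunit and origin classes), Selfox against Control on the left and LPS against Control on the right. Red points are members higher and blue points members lower at an adjusted p under 0.05; most points lie slightly right of 0, and Mrps10 and Mrps2 are the blue points of both panels.

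Counts of calls depended on single Control libraries. Without Control 55 the number of members higher rose to 25 in Selfox and 13 in LPS livers. Without Control 49 it fell to 10 in Selfox and 2 in LPS livers. For LPS livers it was also 2 without Control 46 and 3 without Control 41, Control 52 or LPS 4. The numbers of members lower stayed between 4 and 6 for Selfox and at 2 for LPS livers with each library left out and in the 10 other settings run for each comparison with Control. The share of all genes called was not computed with libraries left out or in the other settings. Shifts in these counts therefore cannot be read as particular to the members.

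Over whole libraries, the mean log2 CPM of the members (CPM, counts scaled to library size) ran from 3.75 to 4.06 in Selfox livers with a median of 3.91, from 3.82 to 3.99 in LPS livers with a median of 3.91, and from 3.73 to 3.96 in Control livers with a median of 3.76. The groups overlapped. Control 40 at 3.94 and Control 55 at 3.96 lay well above the other 4 Control libraries, none of which exceeded 3.77. These were also the deepest Control libraries, with 53806710 and 44318192 counts. The lowest Selfox library, Selfox 9 at 3.75, lay among the low Controls. With every library thinned to 31889957 counts, 12 members were higher and 5 lower in Selfox livers and 4 higher and 2 lower in LPS livers. The share of all genes called after thinning was not computed. Members together took 0.113% to 0.135% of counts in Selfox, 0.114% to 0.138% in LPS and 0.111% to 0.129% in Control libraries.

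**Figure D2:**
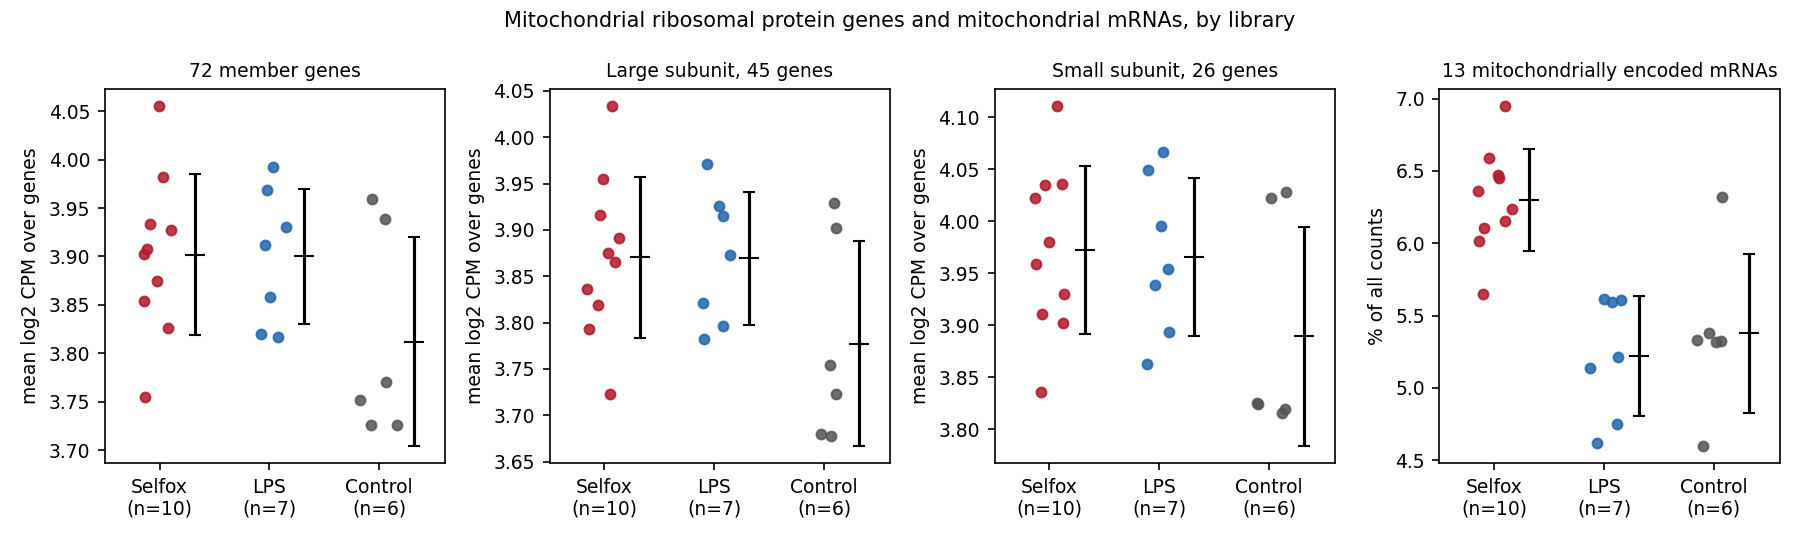
Mean log2 CPM over all 72 members, the 45 of the large and the 26 of the small subunit, and the percent of counts from the 13 mitochondrially encoded messenger RNAs (y axes), with 1 point a library and the mean ± SD of each group beside the points. In the panel of all members Control 40 and Control 55 reach the member level of the model groups, while the other 4 Control libraries lie at 3.77 or lower on the mean log2 CPM axis.

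In the small subunit, 6 members rose and 3 fell in Selfox livers, and 3 rose and 2 fell in LPS livers. The calls were 34.6% of its members in Selfox and 19.2% in LPS livers, against 29.1% and 14.7% of all genes tested. The clearest fall was that of Mrps10, a protein of the head of the small subunit. Mrps10 ran from 4.36 to 6.47 CPM with a median of 5.35 in Selfox, from 4.47 to 6.33 with a median of 5.33 in LPS, and from 6.63 to 8.41 with a median of 7.49 in Control livers. All 10 Selfox and all 7 LPS libraries lay below every Control library. By edgeR the log2 fold change was -0.48 ± 0.10 (SE, adjusted p = 0.000822) in Selfox and -0.41 ± 0.11 (adjusted p = 0.0111) in LPS against the shared Controls. No other member of the 72 had Selfox livers wholly apart from Control livers, where 4.91% of all genes tested did. Between LPS and Control livers, Mrps10 and one other member were wholly apart, against 3.64% of all genes tested. That other member, Mrpl37 of the large subunit, ran from 25.9 to 30.4 CPM in LPS and from 21.9 to 25.5 CPM in Control livers. Its log2 fold change of 0.23 ± 0.08 missed the threshold (adjusted p = 0.0570, edgeR) but passed with DESeq2 (adjusted p = 0.0474). Mrpl37 is named here because of these values. In the RefSeq annotation it overlaps Ssbp3, which averaged 10.2 CPM over all libraries against 26.9 for Mrpl37. Ssbp3 rose by 0.29 ± 0.10 in the same comparison (adjusted p = 0.0471, edgeR).

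Mrps2, a protein that sits between head and body of the small subunit, also fell in both models. Its CPM ran from 13.4 to 19.98 with a median of 17.7 in Selfox, from 11.8 to 18.7 with a median of 15.2 in LPS, and from 18.1 to 25.2 with a median of 21.9 in Control livers. Below the lowest Control library, Control 55, lay 7 of 10 Selfox and 5 of 7 LPS libraries. This was a log2 fold change of -0.35 ± 0.10 (adjusted p = 0.0131) in Selfox and -0.46 ± 0.11 (adjusted p = 0.00801) in LPS livers. In the RefSeq annotation of rat genome GRCr8 this gene overlaps Pierce1, which had too few counts to be tested, and how the authors' counting treated strand and overlap is not given in the sources used here.

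Mrps16, a protein of the body of the small subunit with a bacterial counterpart, rose in both models. It ran from 17.8 to 25.2 CPM with a median of 21.3 in Selfox, from 19.7 to 23.6 with a median of 21.4 in LPS, and from 13.98 to 19.97 with a median of 15.96 in Control livers. Above the highest Control library, again Control 55, lay 7 of 10 Selfox and 5 of 7 LPS libraries. It rose by 0.38 ± 0.08 on the log2 scale (adjusted p = 0.00110) in Selfox and by 0.38 ± 0.09 (adjusted p = 0.00445) in LPS livers, or 1.30-fold in each. Mrps21, of the platform, and Mrps14, of the head, also rose in both models. Mrps21 averaged 16.6 ± 1.3 CPM in Selfox, 17.3 ± 1.1 in LPS and 14.2 ± 1.7 in Control livers (SD, n = 10, 7 and 6), with log2 fold changes of 0.22 ± 0.07 (adjusted p = 0.0166) and 0.28 ± 0.07 (adjusted p = 0.0136) by edgeR. Mrps14 averaged 20.3 ± 2.1, 20.9 ± 2.0 and 17.5 ± 2.3 CPM in the same order, with log2 fold changes of 0.22 ± 0.08 (adjusted p = 0.0475) and 0.26 ± 0.09 (adjusted p = 0.0496) by edgeR. The Mrps14 calls lie at the edge of the threshold. The Selfox call was lost without any 1 of Selfox 1, 2, 3, 5, 6 or 10 or Control 41, 46, 49 or 52, and the LPS call without any 1 of LPS 1, 2, 3, 4, 6 or 7 or the same 4 Control libraries, with an adjusted p of up to 0.147 in Selfox and 0.150 in LPS livers, both without Control 49.

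Mrps27, a mitochondria-specific RNA-binding protein of the small subunit, had the largest rise of any member in Selfox livers. Its CPM ran from 10.8 to 21.3 with a median of 18.8 in Selfox, from 12.9 to 19.8 with a median of 14.99 in LPS, and from 10.9 to 15.5 with a median of 12.2 in Control livers. In 9 of 10 Selfox libraries it exceeded every Control library, and in the other one, Selfox 8, it lay below them all. Against Control the Selfox livers were 1.42-fold higher, 0.51 ± 0.12 on the log2 scale (adjusted p = 0.00236). For LPS livers it was 0.30 ± 0.12 (adjusted p = 0.112), and the direct difference between Selfox and LPS livers, 0.21 ± 0.11, did not pass either (adjusted p = 0.211). Without Selfox 8 that difference was 0.27 and passed (adjusted p = 0.0386). The LPS rise against Control passed without the 5 libraries in which the clock gene Dbp exceeded the clock gene Arntl. It was then 0.48 ± 0.10 on the log2 scale (adjusted p = 0.00288, edgeR). With limma voom the LPS rise was 0.34 and also passed (adjusted p = 0.0421). In the 21 other alternatives, left-out libraries included, it did not pass.

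Among the other small-subunit members, Mrps9, whose tail reaches the decoding site in bacterial ribosomes, rose by 0.23 ± 0.07 on the log2 scale in Selfox livers (adjusted p = 0.0101). Mrps11 of the platform rose by 0.21 ± 0.08 (adjusted p = 0.0481); this gene lies outside the rule for named genes and completes the list of calls, and the call was lost without any 1 of Selfox 1, 3, 6, 7, 9 or 10 or Control 41, 46, 49 or 52, with an adjusted p of up to 0.129, without Control 49. Mrps34, specific to mitochondria, fell to 22.5 ± 2.0 CPM in Selfox livers, against 26.2 ± 2.6 CPM in Control livers (SD, n = 10 and 6), a log2 fold change of -0.22 ± 0.07 (adjusted p = 0.0248, edgeR). That call was lost without any 1 of Control 40, 49 or 52, with an adjusted p of up to 0.0794, without Control 40. Mrps12, the protein of the decoding centre at which streptomycin resistance arises in bacteria, averaged 13.2 ± 1.3 CPM in Selfox, 12.6 ± 0.9 in LPS and 12.4 ± 1.0 in Control livers and did not pass in either comparison (adjusted p = 0.328 and 0.858, edgeR). Mrps6 was the second least abundant member, with means of 4.28 CPM in Selfox, 3.91 in LPS and 3.98 in Control livers, and did not pass.

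**Figure D3:**
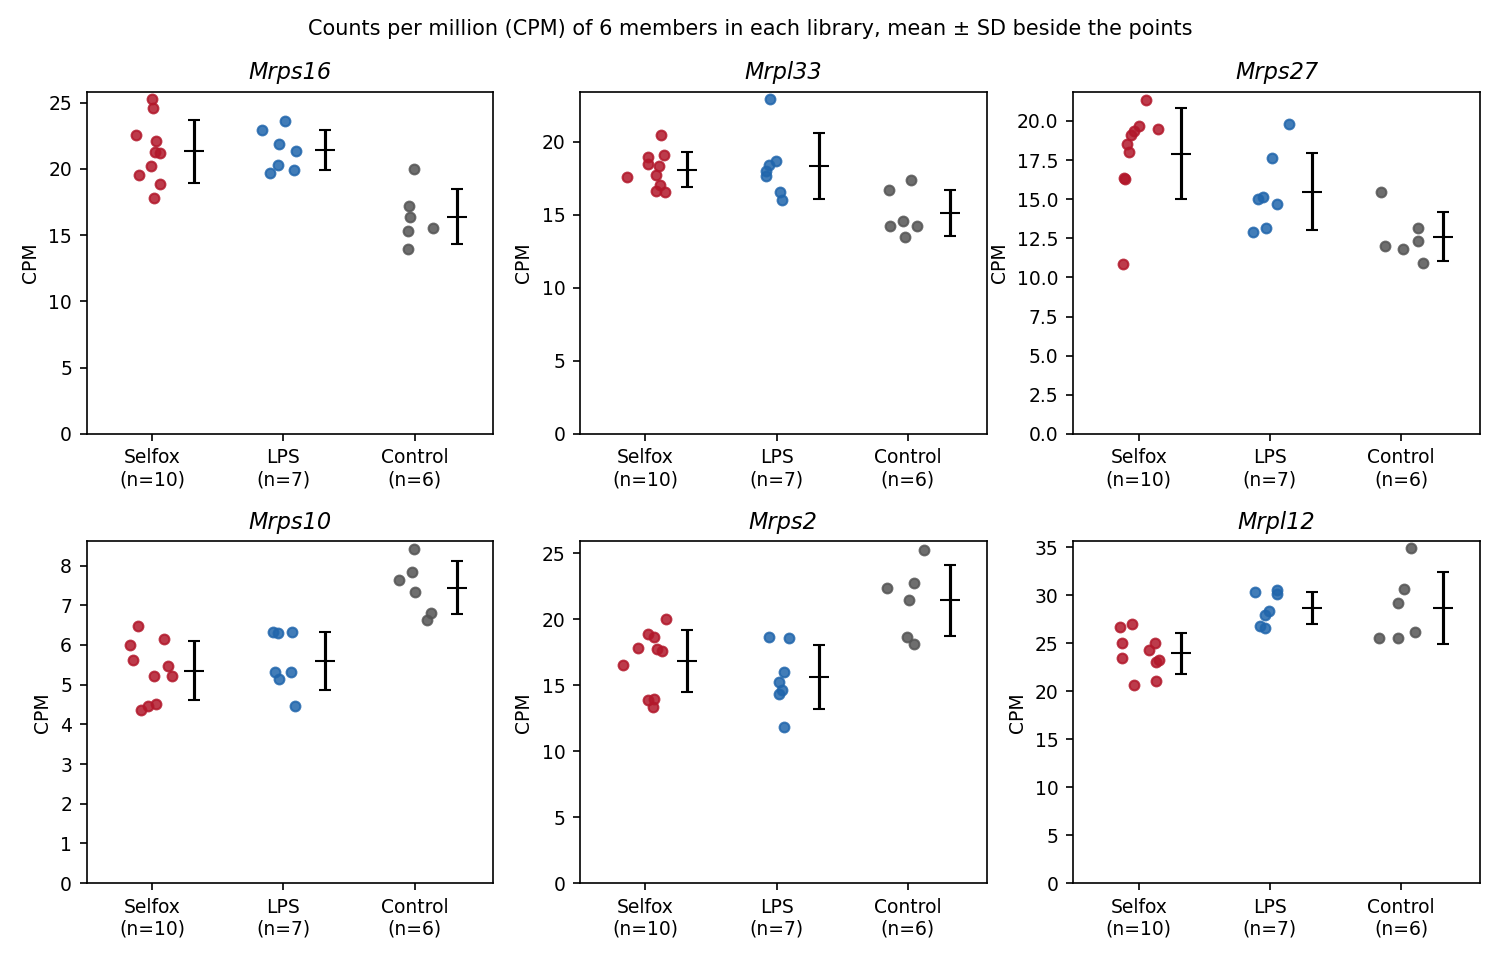
CPM in each library (points) for members named in the text, in the order Selfox, LPS and Control, with the mean ± SD beside the points. Mrps10 has both model groups wholly below the Control libraries, Mrpl12 has 8 of 10 Selfox libraries below all LPS and all Control libraries, and the single low Selfox point of Mrps27 is Selfox 8.

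In the large subunit, 10 members rose and 3 fell in Selfox livers, and 3 rose and none fell in LPS livers. The calls were 28.9% of its members in Selfox and 6.67% in LPS livers, against 29.1% and 14.7% of all genes tested. The largest rise was in Mrpl15, a core protein with a bacterial counterpart and the most abundant member by CPM. It ran from 33.8 to 67.3 CPM with a median of 46.98 in Selfox, from 36.1 to 48.9 with a median of 40.7 in LPS, and from 28.9 to 39.05 with a median of 35.5 in Control livers. In 8 of 10 Selfox libraries it exceeded every Control library, and the Selfox spread was wide (SD 10.7 CPM). The log2 fold change was 0.49 ± 0.12 (adjusted p = 0.00441) in Selfox and 0.30 ± 0.13 (adjusted p = 0.122) in LPS livers. In LPS livers it passed with limma voom (0.38, adjusted p = 0.0357). It also passed by edgeR with only the 2 groups compared in the fit (0.30, adjusted p = 0.0449). In the 21 other alternatives it did not pass.

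Some proteins of the large subunit surround the exit of the peptide tunnel, where new chains meet the inner membrane. Of 7 such members, 4 rose and 1 fell in Selfox livers, or 71.4% called against 29.1% of all genes tested. In LPS livers 1 rose and none fell, or 14.3% against 14.7% of all genes tested. Mrpl45, which anchors the ribosome to the inner membrane, ran from 10.6 to 14.4 CPM with a median of 12.4 in Selfox, from 10.8 to 13.4 with a median of 11.7 in LPS, and from 8.31 to 12.04 with a median of 9.85 in Control livers. The ranges overlapped, with 5 of 10 Selfox and 3 of 7 LPS libraries above every Control library. Its rise was 0.33 ± 0.08 on the log2 scale (adjusted p = 0.00379) in Selfox and 0.29 ± 0.09 (adjusted p = 0.0290) in LPS livers. The LPS call was lost without any 1 of LPS 3 or 4 or Control 40, 41, 46, 49 or 52, with an adjusted p of up to 0.0712, without Control 52. Mrpl23, Mrpl44 and Mrpl39, which complete the rises at the exit and were named after their values were seen, had log2 fold changes of 0.27 ± 0.08 (adjusted p = 0.0121), 0.19 ± 0.07 (adjusted p = 0.0396) and 0.23 ± 0.08 (adjusted p = 0.0409) in Selfox livers. The Mrpl23 call held with each library left out. The Mrpl44 call was lost without any 1 of Selfox 1, 6, 7 or 10 or Control 40, 46, 49 or 52, with an adjusted p of up to 0.0726, and the Mrpl39 call without any 1 of Selfox 1, 2, 3, 5, 6 or 7 or Control 41, 49 or 52, with an adjusted p of up to 0.124. Mrpl47 went the other way, with 9.07 ± 1.07 CPM in Selfox, 10.02 ± 1.19 in LPS and 10.9 ± 0.9 in Control livers (SD, n = 10, 7 and 6) and a log2 fold change of -0.26 ± 0.08 in Selfox livers (adjusted p = 0.0224, edgeR). That call was lost without Control 41 (adjusted p = 0.0741) or Control 55 (adjusted p = 0.0514). Mrpl17, at the same exit and the second most abundant member, averaged 40.02 ± 2.27, 38.3 ± 3.2 and 39.4 ± 2.6 CPM in the same order, with log2 differences from Control of 0.02 ± 0.06 and -0.04 ± 0.06.

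Mrpl12, the stalk protein that recruits translation factors and is also known to bind the mitochondrial RNA polymerase, separated the 2 models. It ran from 20.6 to 27.001 CPM with a median of 23.9 in Selfox, from 26.6 to 30.6 with a median of 28.4 in LPS, and from 25.5 to 34.9 with a median of 27.7 in Control livers. In 8 of 10 Selfox libraries it lay below every LPS and every Control library, and LPS and Control libraries overlapped. The log2 fold change was -0.26 ± 0.07 (adjusted p = 0.0109) in Selfox against LPS livers, -0.26 ± 0.07 (adjusted p = 0.00787) in Selfox against Control livers and 0.00 ± 0.08 (adjusted p = 0.998) in LPS against Control livers. It was the only member of 72, or 1.39%, called between Selfox and LPS livers by edgeR, against 14.5% of all genes tested, made up of 6.86% higher and 7.64% lower in Selfox livers. With an unadjusted p under 0.05 there were 3 members, all lower in Selfox livers, against 28.3% of all genes tested in either direction and 14.4% lower, and DESeq2 called 1, also lower. The next was Mrpl43, specific to mitochondria, at 20.4 ± 1.6 CPM in Selfox and 22.7 ± 1.5 CPM in LPS livers (SD, n = 10 and 7), with a log2 fold change of -0.15 ± 0.06 that did not pass (adjusted p = 0.0915, edgeR). It overlaps Twnk, the mitochondrial DNA helicase, which fell by 0.37 ± 0.09 in the same comparison (adjusted p = 0.00749, edgeR). Dbp and Arntl are clock genes that peak at opposite times of day, and the Mrpl12 call between Selfox and LPS livers was lost without the 5 libraries in which Dbp exceeded Arntl, with an adjusted p of 0.120 and a log2 fold change of -0.22. It was also lost among the libraries numbered 1 to 7 with the number as a replicate block, with an adjusted p of 0.0805 and a log2 fold change of -0.21.

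Further rises in the large subunit were small. Mrpl33, a bacterial-type protein near the site where spent tRNA leaves, averaged 18.1 ± 1.2 CPM in Selfox, 18.3 ± 2.2 in LPS and 15.1 ± 1.6 in Control livers (SD, n = 10, 7 and 6). Its log2 fold change was 0.26 ± 0.07 (adjusted p = 0.0102) in Selfox and 0.28 ± 0.08 (adjusted p = 0.0198) in LPS livers; the LPS call was lost without Control 46 (adjusted p = 0.0532) or Control 49 (adjusted p = 0.0511). Mrpl54 was higher in LPS livers, at 22.97 ± 2.53 CPM, against 18.5 ± 3.2 CPM in Control livers (SD, n = 7 and 6; log2 fold change 0.31 ± 0.10, adjusted p = 0.0438, edgeR), and the call was lost without any 1 of LPS 1 to 4 or Control 41, 46, 49 or 52, with an adjusted p of up to 0.127, without Control 49. In Selfox livers Mrpl54 averaged 20.9 ± 2.4 CPM and did not pass (adjusted p = 0.177). Of 9 members of the central protuberance, the ridge of the large subunit that faces the small one, none passed in LPS livers. In Selfox livers 1 rose, or 11.1% called against 29.1% of all genes tested. That member was Mrpl40, at 12.1 ± 0.6 CPM in Selfox and 10.3 ± 1.3 CPM in Control livers (SD, n = 10 and 6; log2 fold change 0.23 ± 0.06, adjusted p = 0.00929, edgeR). Mrpl52 of the same ridge, next in abundance after Mrpl15 and Mrpl17, averaged 32.2 CPM in Selfox, 32.2 in LPS and 31.6 in Control livers. The remaining rises in Selfox livers were those of Mrpl2, next to the peptidyl transferase centre, Mrpl4, which lines the tunnel, and Mrpl37, at 0.19 ± 0.06, 0.14 ± 0.05 and 0.23 ± 0.08 on the log2 scale (adjusted p = 0.0201, 0.0385 and 0.0246, edgeR). The Mrpl2 call was lost without Control 49 (adjusted p = 0.0533), and the Mrpl37 call without Control 40 (adjusted p = 0.0574) or Control 41 (adjusted p = 0.0523). The Mrpl4 call was lost without any 1 of Selfox 1, 5, 6 or 7 or Control 40, 41, 46 or 49, with an adjusted p of up to 0.114, without Control 49.

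Mrpl49, specific to mitochondria, fell to 5.58 ± 0.76 CPM in Selfox livers, against 7.15 ± 0.73 CPM in Control livers (SD, n = 10 and 6), a log2 fold change of -0.36 ± 0.11 (adjusted p = 0.0158, edgeR). The call was lost without Control 49 (adjusted p = 0.0519) and with counts thinned to equal depth (adjusted p = 0.0697). Mrpl49 may also share reads with a neighbour. It overlaps Syvn1, a ubiquitin ligase of the endoplasmic reticulum with a mean of 63.04 CPM over all libraries against 6.15 for Mrpl49. Syvn1 fell by 0.37 ± 0.08 in the same comparison (adjusted p = 0.00182, edgeR), so the count of Mrpl49 is uncertain where reads of both genes could be assigned to it. In all, 18 of the 71 members found in the RefSeq annotation overlapped another gene there.

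Mrps30 and Mrps18a, named for the small subunit but built into the large one, had log2 fold changes of 0.12 ± 0.07 (adjusted p = 0.184) and 0.16 ± 0.07 (adjusted p = 0.0784) in Selfox livers, and of 0.02 ± 0.07 (adjusted p = 0.864) and 0.09 ± 0.07 (adjusted p = 0.409) in LPS livers; without Selfox 9, Mrps18a passed in Selfox livers (adjusted p = 0.0314). Mrpl58, a peptidyl-tRNA hydrolase that rescues stalled ribosomes, had log2 fold changes of 0.04 ± 0.09 (adjusted p = 0.773) and 0.09 ± 0.09 (adjusted p = 0.555). Mrps36 averaged 11.2 ± 1.5 CPM in Selfox, 11.96 ± 2.01 in LPS and 10.2 ± 1.0 in Control livers (SD, n = 10, 7 and 6), with log2 fold changes of 0.14 ± 0.10 and 0.23 ± 0.11 that did not pass (adjusted p = 0.314 and 0.147, edgeR). Mrpl1, a protein of the other stalk of the large subunit, was scarcely counted, with 0 to 15 reads a library. Its levels were 0.0582 to 0.202 CPM in Selfox, 0.0518 to 0.165 in LPS and 0 to 0.280 in Control livers, and no difference was detectable at such low counts. Why its counts were so low was not tested.

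Promoter windows of members whose changes are described above show what the members share and do not share in sequence. The windows are those of RefSeq on GRCr8, 300 bases from 250 before to 50 after the annotated start, and 57 of 72 members had at least 1, giving 59 windows. They were searched on both strands for exact matches to GCGCATGCG, a form of the NRF1 site, and CCGGAAG, a form of the site of ETS factors such as GABP. The other strings were AAGATGGCG, a form of the YY1 site, and CACGTG, the E-box. The ETS form was in 30.5% of member windows, 8.75% of all 33469 windows and 10.7% of the windows of protein-coding genes. The YY1 form was in 13.6%, 1.73% and 2.07%, the NRF1 form in 8.47%, 1.52% and 1.93%, and the E-box in 6.78%, 6.42% and 7.02%. No member window held overlapping ETS and YY1 matches. The median GC content was 55.7% for members, 51.7% for all windows and 55% for protein-coding genes. Of the members higher in Selfox livers, 5 of 15 with a window held the ETS form, as did 1 of 5 lower members and 12 of 37 members that did not pass.

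The first 2 windows below belong to members that moved in opposite directions, Mrps10, which fell, and Mrps27, which rose; both hold an ETS and a YY1 match, in capitals. The other 3 belong to Mrps16, which rose in both models, Mrps2, which fell in both, and Mrpl12, which was lower in Selfox than in LPS livers. These 3 hold no exact match to the 4 strings, and other forms of the sites were not searched. All are written 5′ to 3′ on the strand of the gene.
Mrps10, chr9:21122404-21122703, minus strand: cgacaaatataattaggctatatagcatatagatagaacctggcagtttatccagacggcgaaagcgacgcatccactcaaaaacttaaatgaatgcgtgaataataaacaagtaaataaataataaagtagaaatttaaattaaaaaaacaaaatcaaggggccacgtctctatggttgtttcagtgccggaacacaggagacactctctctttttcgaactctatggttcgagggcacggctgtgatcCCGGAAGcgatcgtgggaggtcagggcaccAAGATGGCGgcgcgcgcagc
Mrps27, chr2:32473954-32474253, plus strand: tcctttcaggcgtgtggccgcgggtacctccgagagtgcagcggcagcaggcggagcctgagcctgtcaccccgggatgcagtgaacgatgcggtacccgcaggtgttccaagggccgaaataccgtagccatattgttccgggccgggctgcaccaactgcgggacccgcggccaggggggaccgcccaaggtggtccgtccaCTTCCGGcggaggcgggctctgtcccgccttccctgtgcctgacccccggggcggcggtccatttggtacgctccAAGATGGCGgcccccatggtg
Mrps16, chr15:3967559-3967858, plus strand: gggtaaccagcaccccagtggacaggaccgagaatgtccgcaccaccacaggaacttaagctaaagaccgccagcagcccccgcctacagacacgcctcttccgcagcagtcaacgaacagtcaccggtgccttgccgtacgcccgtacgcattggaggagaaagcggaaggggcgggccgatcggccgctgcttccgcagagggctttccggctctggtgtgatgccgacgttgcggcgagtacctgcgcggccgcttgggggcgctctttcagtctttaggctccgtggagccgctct
Mrps2, chr3:32200827-32201126, plus strand: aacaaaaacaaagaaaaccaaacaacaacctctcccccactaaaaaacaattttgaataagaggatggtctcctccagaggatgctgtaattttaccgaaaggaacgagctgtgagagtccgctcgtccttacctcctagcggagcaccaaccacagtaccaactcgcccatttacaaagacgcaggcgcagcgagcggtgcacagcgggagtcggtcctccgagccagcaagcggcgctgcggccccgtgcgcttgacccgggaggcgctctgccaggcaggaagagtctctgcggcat
Mrpl12, chr10:106256496-106256795, plus strand: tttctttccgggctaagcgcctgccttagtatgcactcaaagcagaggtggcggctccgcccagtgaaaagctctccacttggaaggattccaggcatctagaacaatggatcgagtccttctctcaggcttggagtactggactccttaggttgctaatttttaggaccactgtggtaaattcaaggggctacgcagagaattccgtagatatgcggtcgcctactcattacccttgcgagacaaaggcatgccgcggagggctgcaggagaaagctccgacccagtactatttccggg
In Mrps10 the ETS match lies on the gene's strand at 0 to 6 bases from the start and the YY1 match at 30 to 38 bases. In Mrps27 the ETS match lies on the opposite strand, -46 to -40 bases from the start, and the YY1 match on the gene's strand at 29 to 37 bases. A match is a run of letters and not evidence of binding.

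Other genes of mitochondrial translation moved in both directions. Among 5 mitoribosomal genes with other symbols, Dap3, a GTP-binding protein of the small subunit, rose by 0.24 ± 0.06 in Selfox (adjusted p = 0.00452) and by 0.24 ± 0.06 in LPS livers (adjusted p = 0.0135), and Chchd1 rose by 0.42 ± 0.11 in LPS livers (adjusted p = 0.0169). Of 26 assembly factors, 1 rose and 8 fell in Selfox livers and none rose and 6 fell in LPS livers, with medians of -0.08 and -0.06. The calls were 34.6% of the list in Selfox and 23.1% in LPS livers, against 29.1% and 14.7% of all genes tested. Ddx28, an RNA helicase of large-subunit assembly, fell to 5.08 ± 0.98 CPM in Selfox and 5.31 ± 0.46 CPM in LPS livers, against 7.93 ± 0.77 CPM in Control livers (SD, n = 10, 7 and 6), log2 fold changes of -0.64 ± 0.11 (adjusted p = 0.000176) and -0.58 ± 0.12 (adjusted p = 0.00255) by edgeR. Mrm1 and Mrm3, ribose methyltransferases of the large ribosomal RNA, fell by 0.86 ± 0.18 (adjusted p = 0.000921) and 0.71 ± 0.15 (adjusted p = 0.00103) in Selfox livers, and by 0.85 ± 0.19 (adjusted p = 0.00511) and 0.67 ± 0.16 (adjusted p = 0.00722) in LPS livers. Dhx30, another helicase of assembly, fell by 0.17 ± 0.06 (adjusted p = 0.0433) and 0.33 ± 0.07 (adjusted p = 0.00224). No assembly factor was called between Selfox and LPS livers by edgeR.

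Translation factors and tRNA synthetases rose in a few cases. Of 13 factors, 3 or 23.1% rose and none fell in Selfox livers, against 29.1% of all genes tested called in either direction. These were Tufm, Guf1 and Gfm1, all GTPases of elongation. None passed in LPS livers, where 14.7% of all genes tested did. Tufm averaged 71.3 ± 5.5 CPM in Selfox, 59.2 ± 4.7 in LPS and 58.5 ± 3.3 in Control livers (SD, n = 10, 7 and 6), with a log2 fold change of 0.29 ± 0.06 against Control (adjusted p = 0.00112) and 0.27 ± 0.06 against LPS livers (adjusted p = 0.00283) by edgeR. Of 19 synthetases, 3 rose and none fell in Selfox livers, or 15.8% called against 29.1% of all genes tested. Cars2 and Fars2 were among them. In LPS livers the 1 call, or 5.26% against 14.7%, was Pars2, which fell by 0.50 ± 0.14 (adjusted p = 0.0218, edgeR). Of 13 genes of mitochondrial RNA processing, 3 fell in Selfox and 1 in LPS livers. This was 23.1% and 7.69% called, against 29.1% and 14.7% of all genes tested. Elac2, which cuts the ends of mitochondrial tRNAs, fell by 0.25 ± 0.06 (adjusted p = 0.00178) in Selfox and 0.36 ± 0.06 (adjusted p = 0.000578) in LPS livers by edgeR. Of 12 genes of mitochondrial DNA replication and transcription, 1 rose and 3 fell in Selfox livers and none passed in LPS livers. The share called in Selfox livers was 33.3%, against 29.1% of all genes tested. Twnk fell by 0.58 ± 0.09 (adjusted p = 0.000127) and Tfam, which packages mitochondrial DNA, by 0.18 ± 0.05 (adjusted p = 0.0109).

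Of 9 regulators of mitochondrial biogenesis, 2 rose and 1 fell in Selfox livers, or 33.3% called against 29.1% of all genes tested, and none passed in LPS livers. Myc was 62.5 ± 21.3 CPM in Selfox, 37.01 ± 7.65 in LPS and 36.7 ± 7.3 in Control livers (SD, n = 10, 7 and 6), a log2 fold change of 0.77 ± 0.23 against Control (adjusted p = 0.0139, edgeR). Gabpb1, a subunit of the ETS factor GABP, rose by 0.51 ± 0.17 (adjusted p = 0.0270), and Pprc1, a coactivator, fell by 0.66 ± 0.21 (adjusted p = 0.0215). Of 10 chaperones and proteases of the organelle, Trap1 and Lonp1 rose in Selfox livers, by 0.47 ± 0.09 (adjusted p = 0.000511) and 0.22 ± 0.06 (adjusted p = 0.00419) by edgeR, while Trap1 rose and Htra2 fell in LPS livers. In each model 20% of this list was called, against 29.1% of all genes tested in Selfox and 14.7% in LPS livers.

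Some of the messages that the mitochondrial ribosome translates rose in Selfox livers. Of the 13 mitochondrially encoded messenger RNAs, 6 rose and none fell in Selfox against Control livers, none passed in LPS against Control livers, and 7 were higher in Selfox than in LPS livers, with median log2 fold changes of 0.26, -0.05 and 0.37. The calls were 46.2%, 0% and 53.8% of the list, against 29.1%, 14.7% and 14.5% of all genes tested. The median of the 72 members in Selfox against LPS livers was 0.00. Mt-cyb, a subunit of respiratory complex III, averaged 5703 ± 534 CPM in Selfox, 4049 ± 340 in LPS and 4773 ± 503 in Control livers (SD, n = 10, 7 and 6; Selfox against LPS 0.49 ± 0.07, adjusted p = 0.000107, edgeR). Together these messages took 5.65% to 6.95% of counts in Selfox, 4.62% to 5.61% in LPS and 4.60% to 6.32% in Control libraries, so that every Selfox library lay above every LPS library, while Control 46, the highest Control library, lay within the Selfox range.

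Genes of cytosolic ribosomal proteins shared the upward direction of the members and differed in their calls. Of 68 tested, 54 were positive in Selfox and 66 in LPS against Control livers, as were 53 and 56 of the 72 members. By calls, 1 rose in Selfox and 32 in LPS livers, or 1.47% and 47.1%, against 29.1% and 14.7% of all genes tested. None fell in either. In Selfox against LPS livers 10 or 14.7% were lower and none higher, against 7.64% of all genes tested lower. The medians were 0.10 in Selfox and 0.30 in LPS against Control, and -0.18 in Selfox against LPS livers. Many of these genes have near-identical processed copies, between which counting can divide reads, so single values are uncertain.

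**Figure D4:**
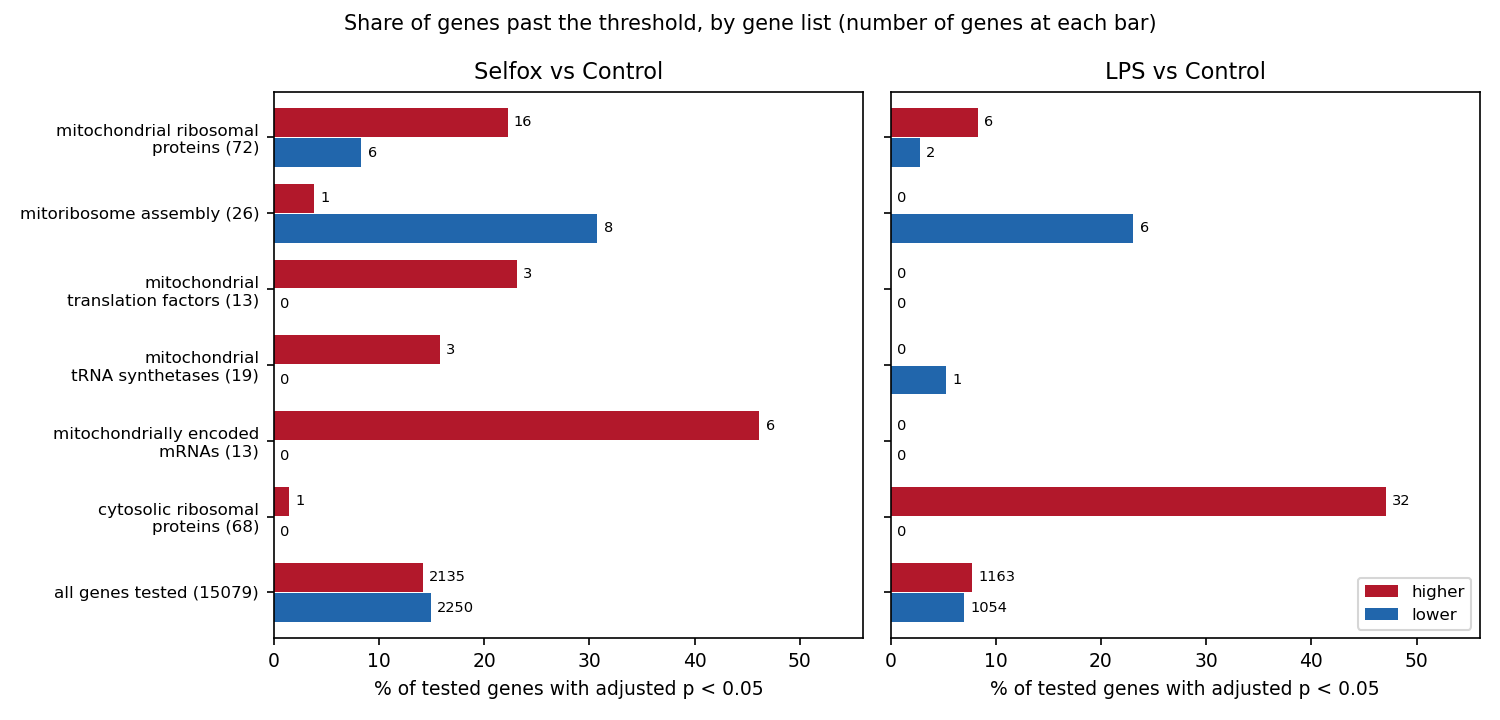
Share of tested genes with an adjusted p under 0.05 (x axis, percent) in each gene list (rows), higher and lower separately, for Selfox and for LPS against Control; numbers at the bars count genes. The members have more higher than lower calls in both panels, calls among assembly factors are mostly lower, those among mitochondrially encoded messenger RNAs stand in the Selfox panel, and most of those among cytosolic ribosomal protein genes in the LPS panel.

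Markers of some cell types moved with the Selfox group, in which 29.1% of all genes tested were called. All 7 tested Kupffer cell markers fell in Selfox livers, with summed levels of 199 to 318 CPM in Selfox, 517 to 796 in LPS and 598 to 814 in Control libraries, and none was at 0. Of 8 lymphocyte markers, 5 fell in Selfox livers, with summed levels of 3.38 to 5.50, 5.73 to 8.54 and 5.38 to 7.60 CPM in the same order. Of 8 hepatocyte markers, 4 fell and 1 rose, with summed levels of 101950 to 134684, 89693 to 163570 and 133164 to 210862 CPM. Of 8 stellate cell markers 4 rose and 1 fell, of 6 cholangiocyte markers 2 rose, of 7 endothelial markers 2 rose and of 2 erythroid markers none passed in Selfox livers. The calls were 62.5% each of the lymphocyte, hepatocyte and stellate cell lists. For cholangiocytes they were 33.3% and for endothelium 28.6%, both near the share over all genes. In LPS livers 1 marker each of hepatocytes, Kupffer cells, endothelium and lymphocytes and 2 of cholangiocytes rose, and none fell. These were 12.5% each of the hepatocyte and lymphocyte lists and 14.3% each of the Kupffer cell and endothelial lists, near the 14.7% of all genes tested. For cholangiocytes the share was 33.3%. In whole liver, fewer cells of a type and less RNA per cell cannot be told apart, and the part of these shifts in the members' values was not tested.

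Spread within groups was lower over the members. The median SD of log2 CPM between libraries was 0.13 over the members and 0.25 over all genes tested in Selfox, 0.14 and 0.24 in LPS, and 0.17 and 0.24 in Control livers. The highest member SD was that of Mrpl1, the member with the fewest counts, in each group. Members and all genes tested were not matched on abundance, so the lower spread cannot be read as particular to the members. Without the 5 libraries in which Dbp exceeded Arntl (Selfox 8, LPS 5, LPS 6, LPS 7 and Control 55), 28 members were higher in Selfox and 12 in LPS livers. The share of all genes called without these libraries was not computed.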

How the data were processed

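Gene counts were deposited by the authors as one table of whole-number counts, not normalized, from whole-liver libraries prepared with the TruSeq stranded mRNA kit, per the labels' protocols. FastQC, Trim Galore, STAR 2.7.9a and featureCounts of Subread 2.0.3 are named in the submitters' processing notes; genome build, annotation and strand setting are not stated. Of low counts from 1 to 9, 66.1% to 74.9% a library were even, so both ends of a read pair may have been counted, and counts overstate independent molecules. Totals were 31889957 to 79249765 counts a library. Genes were filtered with filterByExpr (minimum count 10, 15079 kept), scaled by TMM and tested with edgeR 4.0.16 (robust quasi-likelihood F test, 23 libraries in one fit, Benjamini-Hochberg over all genes, threshold 0.05); SE is the size of the log2 change over the root of F. Log2 CPM used a prior count of 2. The procedure was tested on simulated data. Named genes were the lowest adjusted p per comparison and direction, the members past in both model comparisons, extremes of abundance and fixed special positions; levels per coding length were not used here. Members and lists were chosen with earlier results of these data known; Mrps28 was placed in its class after the table was opened. Alternatives covered scaling, filters, DESeq2 1.42.0, limma 3.58.1 voom, thinning, halved counts, the groups fitted, the replicate block and libraries left out.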

Additional observations from a re-analysis of the deposited data

Results flagged for a closer look

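For the 33 named members, 99 sets of libraries (a member in a group) were checked for a library far from the others, and 6 were found; chance alone gives about 1 in 20. Values are log2 CPM. Mrps27 was 3.44 in Selfox 8, against 4.03 to 4.42 in the other Selfox libraries. Mrpl33 was 4.52 in LPS 3, against 4.003 to 4.23 in the other LPS libraries. Mrpl4 was 4.73 in LPS 4, against 4.48 to 4.59. Mrpl52 was 5.31 in LPS 4, against 4.83 to 5.01, and Mrps36 was 4.03 in LPS 6, against 3.37 to 3.59. Mrps21 was 4.14 in Control 55, against 3.73 to 3.83 in the other Control libraries.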

How the results depend on the processing

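None of the 33 named members reversed a called direction in any alternative run. Mrps16, Mrps21, Mrps10 and Mrps2 passed against Control in both models under all 10 alternatives and with each library left out. With limma voom, 28 members were higher in Selfox and 15 in LPS livers than in Control livers, and 2 were lower in Selfox than in LPS livers; without the 5 libraries with Dbp above Arntl, the members higher than in Control livers were 28 and 12. Thinning to equal depth gave 2 members lower in Selfox than in LPS livers. Against Control livers, thinning ended the Selfox calls of Mrpl4, Mrpl44, Mrpl49, Mrps11 and Mrps14, with an adjusted p of up to 0.0768 by edgeR. It also ended the LPS calls of Mrpl54 and Mrps14, with an adjusted p of up to 0.0751. At least 1 other alternative ended the Selfox calls of Mrpl39, Mrpl47 and Mrps34 and the LPS calls of Mrpl33 and Mrpl45. Calls were also gained against Control in at least 1 alternative or with 1 library left out. In LPS livers these were Mrpl2, Mrpl15, Mrpl37, Mrpl40, Mrpl44, Mrps11 and Mrps27. In Selfox livers they were Mrpl54, Mrps18a and Mrps30. Leaving out 1 library gave 10 to 25 members higher in Selfox and 2 to 13 in LPS than in Control livers, and 0 to 1 higher (1 without Selfox 8) and 1 to 2 lower (2 without LPS 5) in Selfox than in LPS livers. Among libraries numbered 1 to 7, 1 member was higher and 1 lower in Selfox than in LPS livers with no replicate block, and with the replicate block 1 was higher and 0 lower. Over all genes tested, Selfox and LPS libraries of the same number had little in common beyond their group means (correlations of -0.06 to 0.18, 1 over 0.1). The labels do not say whether the numbers pair libraries, and these correlations cannot settle it. Under the 10 alternatives the member median against Control ran from 0.10 to 0.15 in Selfox and from 0.08 to 0.17 in LPS livers, and with 1 library left out from 0.09 to 0.14 and from 0.06 (without Control 49) to 0.14. Depth limits Mrpl1. The share of all genes called under each alternative was not computed, so shifts in counts cannot be read as particular to the members. The cause of these shifts was not tested.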
